A study of Mus musculus with 6 samples.

Results

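miR-21 and the miR-29 family are miRNAs with a known link to cardiac fibrosis, the deposition of collagen and other matrix between heart muscle cells. All names of miR-21 and miR-29 were taken from a miRNA-Seq table of embryonic mouse cardiomyocytes (EMCMs) by their number alone, with any letter, copy number or asterisk, which gave 8 of the 689 miRNA names. They were 2 strands of miR-21 and 6 strands of miR-29, of which 4 in all were main strands and 4 were strands marked with an asterisk, the less used strand of a hairpin in the older naming.

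The cells were wild type cardiomyocytes from E16.5 Swiss Webster mouse embryos, per the labels, and were grown on plates coated with collagen I. The study's methods name CD1 mice and more samples per group than the labels, and which samples entered the means below is not given in the sources used here. The static group held 3 samples kept still for 24 h, and the stretch group held 3 samples stretched by 16% in cycles at 1 Hz over the same 24 h. The labels name no other treatment, and they do not say whether the samples came from separate litters. Small RNA was sequenced, and tags of 18 to 30 nt were counted for each miRNA. The value used here was the authors' mean abundance over both groups, which carries no error and no depth because it is 1 number per miRNA for all samples. It was read as the log2 of the share of miRNA reads, an inference from its column name and from its sum over all names, 0.995 after undoing the log. Each percent and each number of reads in 1000000 given below rests on that reading, while the ranks do not. The difference between static and stretched EMCMs, the question the samples were made for, was likewise not analysed here, since the table otherwise held the authors' own comparison. The order of levels given below was therefore not tested.

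A miRNA is cut from a hairpin-shaped precursor, and one of its strands is loaded into the silencing complex, where the seed, bases 2 to 8, pairs with the 3′ untranslated region (UTR) of target mRNAs. miR-21 is abundant in cardiac fibroblasts and rises in many injured tissues, where it is known to repress inhibitors of growth factor signaling such as Spry1. The miR-29 family is known for repressing mRNAs of collagens, elastin and fibrillin, so that less miR-29 goes with more matrix.

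The mature sequences, from RefSeq on GRCm38.p6, are shown because the seed sets which mRNAs each strand can pair with and because the family members differ from each other by few bases. All 8 names were matched to a RefSeq entry, with miR-21 as miR-21a-5p and the miR-29 main strands as the 3p arms. They are written 5′ to 3′ with the seed in capitals.
miR-21: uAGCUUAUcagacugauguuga
miR-21*: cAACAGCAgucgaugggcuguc
miR-29a: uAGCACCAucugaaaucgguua
miR-29b: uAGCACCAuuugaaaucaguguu
miR-29c: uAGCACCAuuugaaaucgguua
miR-29a*: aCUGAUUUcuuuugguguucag
miR-29b-1*: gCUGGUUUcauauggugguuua
miR-29c*: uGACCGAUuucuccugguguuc

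The main strands of miR-29 shared the seed AGCACCA, and no other of the 1679 mature miRNA names in the RefSeq table held it. The 4 asterisk strands each had a seed of their own that no further mature name carried. miR-29a and miR-29c differed by C10U alone, with positions counted from 1 at the 5′ end and the miR-29a base first. miR-29b differed from miR-29a at C10U, G18A, U21G and A22U and was 23 nt long, against 22 nt for miR-29a and miR-29c. The longest run of bases in common was 9 nt for miR-29a and miR-29b, 12 nt for miR-29a and miR-29c, and 17 nt for miR-29b and miR-29c. Each was shorter than 18 nt, the shortest tag kept, so a tag lying within one of these sequences and matching it without a mismatch could not match another. Whether mismatches were allowed in the mapping is not given in the sources used here, so the split between miR-29a and miR-29c, 1 base apart, is uncertain to that extent. The seed of miR-21 was shared with miR-21c in RefSeq, a sequence that is not among the 689 names.

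The 5 hairpins lie at 3 places in the genome. Mir21a is on chromosome 11 from 86584067 to 86584158 on the minus strand, inside the last annotated exon of Vmp1 and its 3′ UTR in the GENCODE annotation of GRCm38, on the same strand. Mir29a, on chromosome 6 from 31062660 to 31062747, and Mir29b-1, from 31063023 to 31063093, form a cluster on the minus strand with 275 bases between them. Mir29b-2, on chromosome 1 from 195037040 to 195037120, and Mir29c, from 195037547 to 195037634, form another cluster on the plus strand with 426 bases between them. Both of the latter lie in an exon of the noncoding gene A330023F24Rik and opposite the 3′ UTR of Cd46. Mature miR-29b is identical from both of its hairpins, so its level is a sum over the clusters. The chromosome 6 hairpins are shown to place the strands, with the asterisk strand first and the main strand second, both in capitals.
Mir29a: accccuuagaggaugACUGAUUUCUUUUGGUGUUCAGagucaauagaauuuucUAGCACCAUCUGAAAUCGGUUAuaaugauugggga
Mir29b-1: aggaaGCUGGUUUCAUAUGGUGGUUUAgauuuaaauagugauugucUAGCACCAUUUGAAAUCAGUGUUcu

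miR-21 was among the dominant miRNAs of EMCMs, and miR-29 was not. miR-21 had a log2 mean abundance of -5.20, which is 2.72% of the miRNA reads, and ranked 8 among the 689 names. It stood between miR-26a with 3.63% and miR-148a with 2.11%. The 5 most abundant names were miR-22 with 20.6% of the reads, miR-143 with 13.4%, miR-99b with 11.7%, miR-27b with 7.49% and miR-127 with 7.19%. miR-22 was 7.55-fold as abundant as miR-21. The 8 most abundant names, miR-21 included, together held 70.3% of the reads.

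The miR-29 main strands were led by miR-29a. Its log2 mean abundance was -10.38, which is 0.0753% of the reads (753 reads in 1000000), at rank 66. miR-29b followed at -13.69, with 76.1 reads in 1000000 and rank 162, and miR-29c at -14.65, with 39.1 reads in 1000000 and rank 204. In rank, miR-29a stood between miR-24-2* and miR-208a-3p, miR-29b between let-7b* and miR-34b-5p, and miR-29c between miR-379* and miR-487b. Together the main strands of miR-29 made up 0.0868% of the reads, and miR-21 alone was 31.4-fold as abundant as their sum. Of all reads with the miR-29 seed, 86.7% were miR-29a, 8.76% were miR-29b and 4.50% were miR-29c. miR-29a was 9.90-fold above miR-29b and 19.3-fold above miR-29c, while miR-29b was 1.95-fold above miR-29c. The last pair changed order when the level was divided by the number of hairpins: miR-29b then had 0.00380% of the reads per hairpin, against 0.00391% for miR-29c. That value is a mean over 2 hairpins whose separate output was not measured. With no error on the values, the order per hairpin is uncertain.

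Mir29a and Mir29b-1 are neighbors on chromosome 6, yet miR-29b, to which the chromosome 1 hairpin also adds, was 9.90-fold below miR-29a. Small RNA libraries do not capture all sequences equally, and the part of capture in differences between names was not tested.

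**Figure D1:**
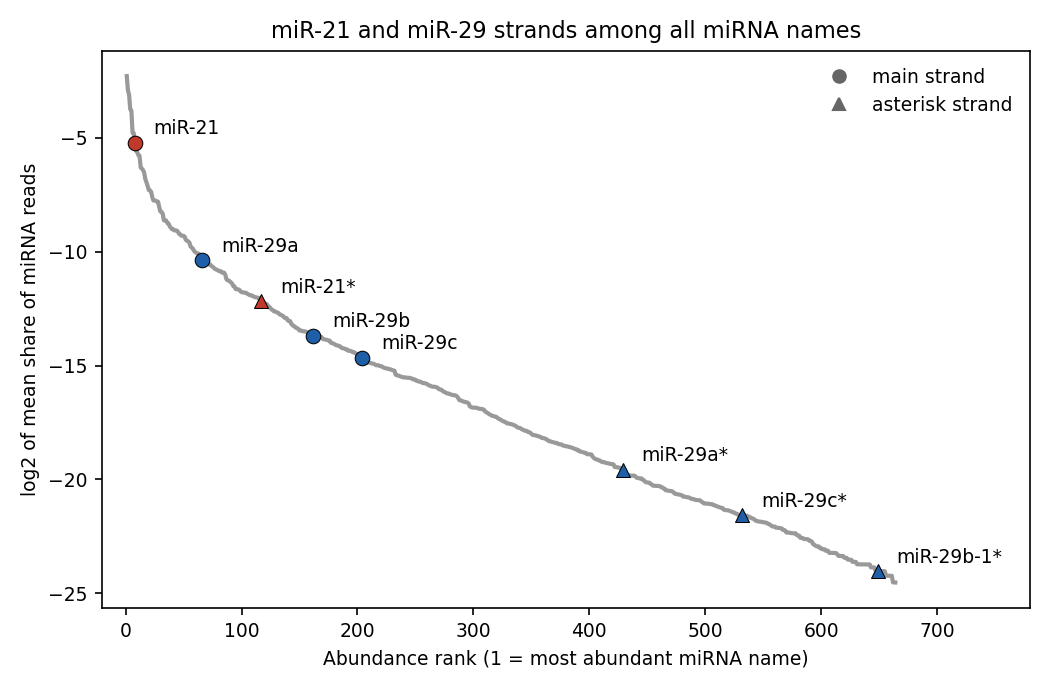
Log2 of the mean share of miRNA reads (vertical axis) against abundance rank (horizontal axis) for the miRNA names with reads in both groups (grey line). Circles are main strands and triangles asterisk strands of miR-21 (red) and miR-29 (blue); miR-21 is at rank 8, and miR-21* at rank 117 lies above miR-29b at rank 162 and miR-29c at rank 204.

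The asterisk strands of miR-21 and miR-29 differed in absolute level. miR-21*, the strand that miR-21 precursors mostly discard, had a log2 mean abundance of -12.16, or 219 reads in 1000000, and ranked 117 of 689. It was 2.88-fold more abundant than the main strand miR-29b and 5.61-fold more abundant than the main strand miR-29c, and 3.44-fold below miR-29a. Among the 211 names with an asterisk, miR-21* ranked 11, while miR-29a* ranked 106, miR-29c* 147 and miR-29b-1* 196.

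The asterisk strands of miR-29 were rare. miR-29a* had a log2 mean abundance of -19.57, or 1.29 reads in 1000000, and miR-29c* one of -21.57, or 0.322 in 1000000. miR-29b-1* was at -24.02, or 0.0591 in 1000000, and its value was identical to that of miR-669h-5p, an unrelated miRNA. Apart from the 25 names with values below -30, read as having no reads in a group, 14 names lay below miR-29b-1*, so it was at the lower end of what was detected and its level is the least certain of the members. The strand from the other miR-29b hairpin, miR-29b-2*, was not among the 689 names and so has no level here.

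Relative to its own hairpin, miR-21* was the minor product, at 0.798% of the reads of both strands. The log2 ratio of main to asterisk strand was 6.96 for miR-21 and 6.92 for miR-29c, a main strand 124-fold and 121-fold above its partner. It was larger for miR-29a, at 9.19 or 585-fold. For miR-29b against miR-29b-1* it was 10.33, which sets the product of both miR-29b hairpins against the asterisk strand of only 1 of them. Over 161 strand pairs with reads in both groups, the median log2 ratio was 4.44, with quartiles of 2.23 and 8.28, and in 15 pairs the asterisk strand was the more abundant. A larger ratio than that of miR-21 was found in 31.7% of these pairs, than that of miR-29c in 32.3%, than that of miR-29a in 16.8% and than that of miR-29b in 13.0%. The 8 pairs left out each had an asterisk strand without reads in a group. Their ratios, 14.9 or more, lay above those of all members, so these percentages would be higher with them. All 4 hairpin families thus stood above the median pair, and miR-29a and miR-29b also above the upper quartile.

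**Figure D2:**
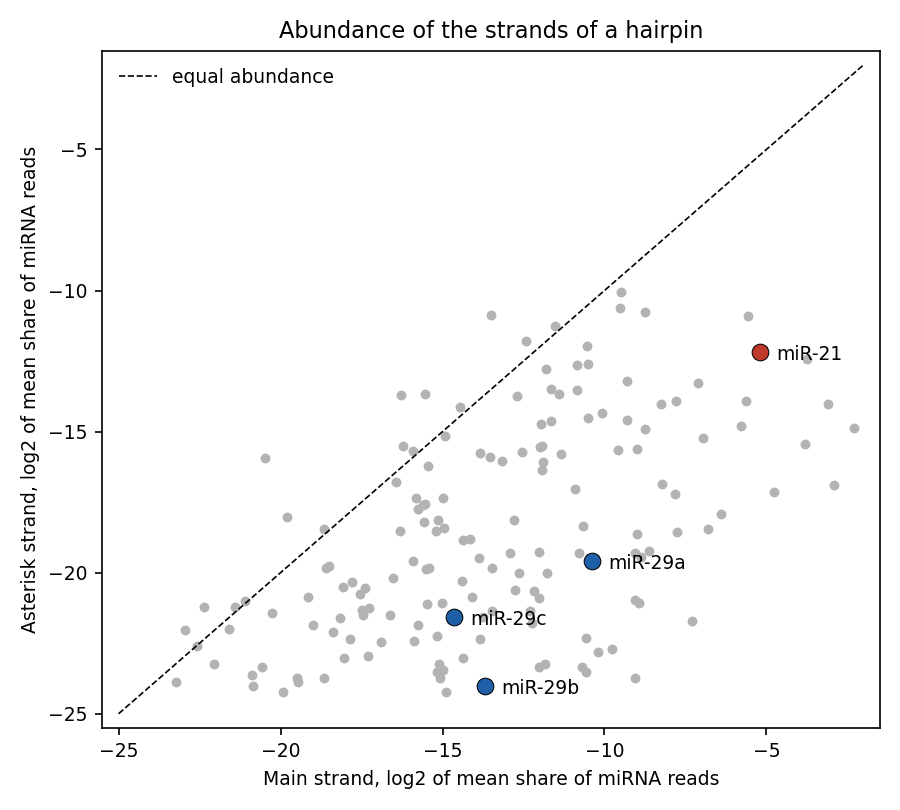
Asterisk strand (vertical axis) against main strand (horizontal axis) of 161 hairpin strand pairs, both as log2 of the mean share of miRNA reads, with a dashed line at equal abundance. Grey points are other miRNAs; miR-21 (red) lies 6.96 below the line on the log2 scale, and miR-29a, miR-29b and miR-29c (blue) lie 9.19, 10.33 and 6.92 below it.

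Other miRNAs with a known link to cardiac fibrosis were compared by level. All 31 names of the list were found, miR-1 as miR-1a, and as 33 entries since miR-212 and miR-208a were listed by both arms. Only 2 entries were more abundant than miR-21: miR-22, with 20.6% of the reads, and miR-26a, with 3.63%. miR-125b-5p followed miR-21 with 1.28%, and miR-16 with 0.634%. Above miR-29a were 9 of the 33 entries, among them miR-133a with 0.187%, miR-30b with 0.130% and miR-24 with 0.108%. miR-133a and miR-30b are known to repress connective tissue growth factor. The other members of the miR-133 and miR-30 families on the list were below miR-29a. They were miR-30d with 0.0543%, miR-30a with 0.0341%, miR-30c with 0.0284%, miR-30e with 0.00870% and miR-133b with 0.00107%. miR-208a-3p, from an intron of the cardiac myosin gene Myh6, was next to miR-29a in rank, with 0.0750% against 0.0753%. Below miR-29b were 9 entries and below miR-29c 6, among the latter miR-155 with 0.00272%. Of all 689 names, 98.8% lay below miR-21, 90.4% below miR-29a, 76.5% below miR-29b and 70.4% below miR-29c. The median log2 mean abundance was -11.96 over the 33 entries and -17.86 over all 689 names.

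The cultures were labelled as cardiomyocytes, and the muscle miRNAs were present. The 6 names of the cardiomyocyte list summed to 1.51% of the reads, led by miR-208b with 1.18%, which miR-21 exceeded 2.31-fold. miR-133a had 0.187%, miR-208a-3p had 0.0750%, miR-1a had 0.0397% and miR-499 had 0.0215%. miR-133b had only 0.00107%, at rank 289, below miR-29b and miR-29c. miRNAs known from other cells of the heart were present too. The fibroblast or mesenchymal list, 4 names of which miR-199a-3p and miR-199b had the same value and were counted once, summed to 0.441%, led by miR-199a-5p with 0.254%. In the smooth muscle list miR-143 had 13.4% and miR-145 had 0.0697%, and in the endothelial list miR-126-5p had 0.466% and miR-126-3p 0.0130%. All 4 entries of the fibroblast or mesenchymal list were above miR-29b, as were both of the smooth muscle list and both of the endothelial list. In the cardiomyocyte list all entries but miR-133b were above it. Of all 689 names, 76.5% lay below miR-29b. The 6 names of the blood and immune list summed to 0.00857% and the 7 of the epithelial list to 0.00498%. Each single name of these lists was below miR-29b. miR-142-5p, with 0.00753%, held most of the blood and immune sum. It was just below miR-29b, with 0.00761%, and above miR-29c. From which cells of the cultures miR-21 and miR-29 came was not tested, and fewer cells of a type cannot be told apart from less RNA per cell.

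**Figure D3:**
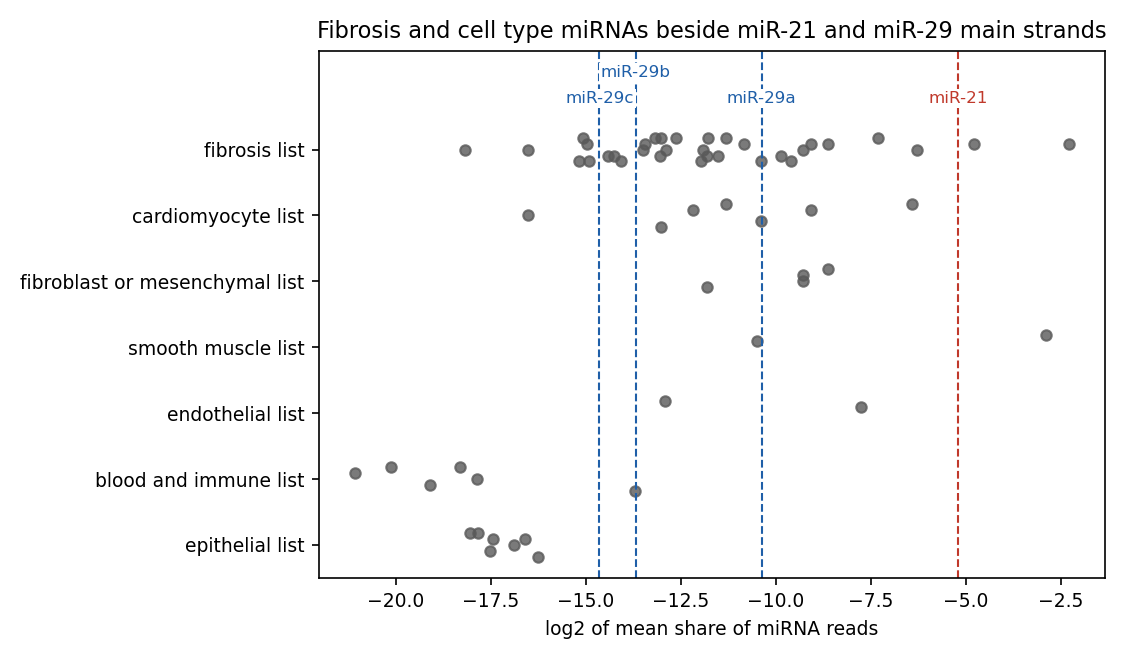
Log2 of the mean share of miRNA reads (horizontal axis) of each miRNA (points) in the fibrosis list and in 6 cell type lists (rows), with dashed lines at the main strands of miR-21 (red) and miR-29 (blue). Only miR-22 and miR-26a of the fibrosis list and miR-143 of the smooth muscle list lie to the right of miR-21, and all blood and epithelial entries lie to the left of miR-29b.

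What the seeds could pair with was read from annotated 3′ UTRs, as sequence only, since no mRNA was measured. The match searched was TGGTGCTA for miR-29 and ATAAGCTA for miR-21, the reverse complement of bases 2 to 8 followed by A, searched on the mRNA strand only, in the longest annotated 3′ UTR of each gene. The miR-29 match stood in 2.86% and the miR-21 match in 2.10% of 20982 3′ UTRs. Among 20 genes chosen as known targets of either family, 11 held the miR-29 match, at 14 places, and 5 held the miR-21 match. Because the genes were chosen for known targeting, their share is no finding. A match is a description of the letters, and no match says only that these letters are absent from this 3′ UTR.

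The miR-29 matches in matrix genes are shown with the match in capitals, in GRCm38, since these are the mRNAs for which the family is known in fibrosis. Col1a1 and Col3a1 encode fibrillar collagens, Eln encodes elastin and Fbn1 encodes fibrillin. The stretch shown, which is the match with its flanking bases, lies for Col1a1 at chr11:94952526-94952547 on the plus strand. For Col3a1 it lies at chr1:45348970-45348991 on the plus strand. For Eln, where the first match is shown, it lies at chr5:134703734-134703755 on the minus strand. For Fbn1 it lies at chr2:125301171-125301192 on the minus strand.
Col1a1: ggaaggaatttcTGGTGCTAta
Col3a1: aaaatgtctcaaTGGTGCTAta
Eln: cctcatcaacgtTGGTGCTAct
Fbn1: ctgttgtctgttTGGTGCTAgt

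Eln and Col5a1, a further fibrillar collagen, each held 2 matches, and those of Eln began at positions 38 and 285 of a 3′ UTR of 1188 nt. Col4a1, a basement membrane collagen, held 1, while Col1a2 and Sparc held 0. Since the miR-29 main strands share their seed, each match is complementary to the seed of miR-29a, miR-29b and miR-29c alike, and 86.7% of the miR-29 main strand reads were miR-29a.

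For miR-21, the matches are those of Pdcd4, a translation inhibitor, Spry1, an inhibitor of ERK signaling, and Reck and Timp3, which inhibit matrix metalloproteinases. The stretches shown are the match with its flanking bases, and all lie on the plus strand. They are at chr19:53929420-53929441 for Pdcd4, chr3:37643861-37643882 for Spry1, chr4:43944395-43944416 for Reck and chr10:86348215-86348236 for Timp3.
Pdcd4: gtgggtgttctgATAAGCTAct
Spry1: gtaagtgcttaaATAAGCTAta
Reck: ttacagtttgaaATAAGCTAtt
Timp3: tttgagctttcaATAAGCTAta

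Spry2, a relative of Spry1, held the fifth. None of these 5 genes held the miR-29 match, and none of the collagen genes searched held the miR-21 match.

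**Figure D4:**
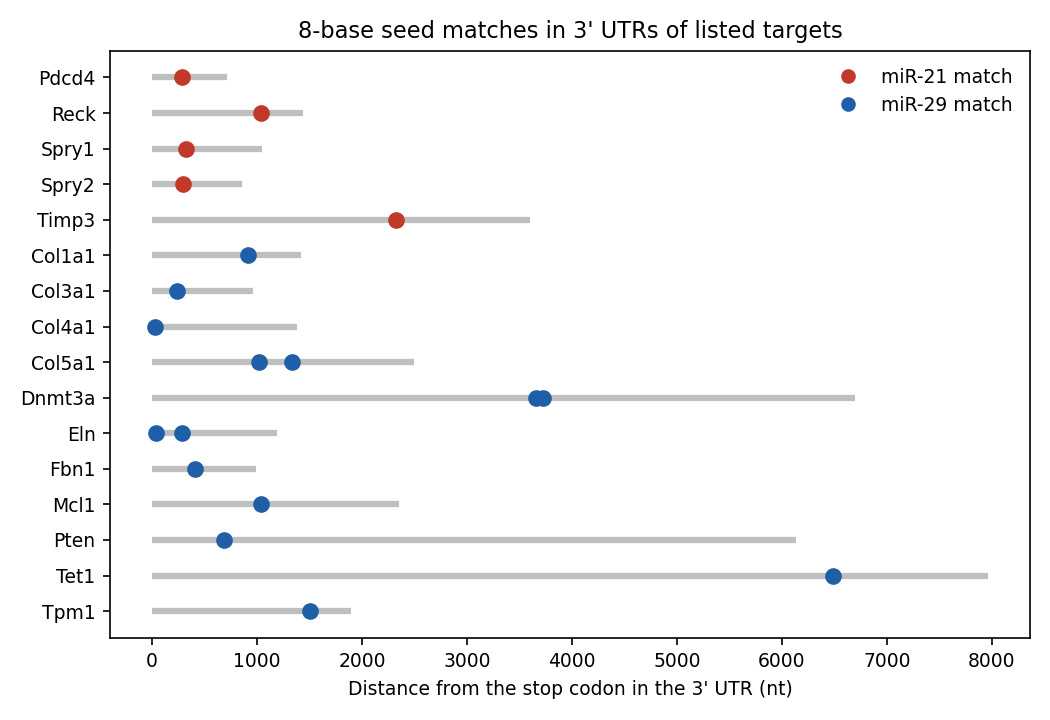
Positions of the 8-base matches to the miR-21 seed (red) and the miR-29 seed (blue) along the 3′ UTRs (grey bars) of the listed targets that held a match, as distance from the stop codon in nt (horizontal axis). No bar carries both colors, and Eln, Col5a1 and Dnmt3a each carry 2 miR-29 matches.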

How the data were processed

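The labels list miRNA-Seq of 3 static and 3 stretched EMCM samples, the methods name more, and which of them entered the deposited means is not given in the sources used here. According to the methods, the authors trimmed adaptors, kept tags of 18 to 30 nt, aligned these to the mouse genome by Bowtie2, summed counts by gene ID and ran edgeR; the submitters' processing notes also name DESeq. The genome build is not given in the sources used here. One table was deposited, and its log2 mean abundance was deposited by the authors as 1 value per miRNA over both groups. The other columns hold the authors' comparison of the groups (P value, FDR, and the change both as log2 ratio and as signed fold) and were not used. The depth per sample is unknown.

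The share of reads was 2 to the power of the log2 mean abundance, divided by its sum over the 689 names. That sum was 0.995, and together with the column's name it is the basis for reading the column as a log2 share of reads. The unit is not stated in the table and the edgeR version is not given in the sources used here, so the shares depend on this inference. Whether the groups were averaged before or after the log was taken is not stated either. The mean share named in the figures may therefore be a mean of log2 shares. Values below -30 from 1 empty group would arise only if the log was taken first. In all, 25 names lay below -30 on the log2 scale, which was read as the mark of a miRNA without reads in a group, and 8 of 169 strand pairs with such a name were left out. Pairs were a name and the same name with an asterisk, plus miR-29b with miR-29b-1*. The named miRNAs were the members, their neighbors in rank, the most abundant names, those with the same seed or the same value, and the fixed lists; the genes shown with a target match were picked for their known role after the matches were seen. The members and lists were chosen with earlier results of these data known. Sequences and positions came from RefSeq (GRCm38.p6), and genes and 3′ UTRs from GENCODE M21 (GRCm38). Of 21 listed target genes, 1 is not reported here. The calculation of shares, ranks and ratios was checked on a shuffled and altered copy of the values. That checks the arithmetic only and says nothing about the reported values. Python 3.11.15, numpy 2.4.6, pandas 2.3.3 and matplotlib 3.10.9 were used.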

Additional observations from a re-analysis of the deposited data

How the results depend on the processing

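The alternatives changed the denominator, the names ranked or the strand pairs. No spread between replicates was available, so a value counted as moved when its first 3 digits changed. With names of identical abundance counted once, the share was 2.73% for miR-21, 0.0756% for miR-29a, 0.00764% for miR-29b and 0.00392% for miR-29c, and the rank was 64 for miR-29a, 160 for miR-29b and 201 for miR-29c. For the asterisk strands the same count gave a share of 0.0220% and rank 115 for miR-21*, rank 423 for miR-29a*, a share of 3.24e-05% and rank 524 for miR-29c*, and a share of 5.93e-06% and rank 636 for miR-29b-1*. Among names without an asterisk, the shares were 2.75%, 0.0759%, 0.00767% and 0.00394%, and the ranks of the miR-29 main strands 64, 139 and 166. Rank 8 of miR-21 did not move under either. Leaving out names without reads in a group moved no share of the main strands, and ranking only names above the median moved no rank. Neither could have done so, and neither is a check of the results. Names without reads in a group add almost nothing to the sum, and names below the median rank below every main strand. Among strand pairs with the main strand above the median abundance, a larger ratio was found in 38.3% of pairs for miR-21, 20.3% for miR-29a, 15.8% for miR-29b and 39.1% for miR-29c; fewer pairs were compared there. Divided by its 2 hairpins, miR-29b had 0.00380% and fell just below miR-29c, which reverses their order. The separate output of the hairpins was not measured and the values carry no error, so the order per hairpin is uncertain. Setting miR-29b against all its asterisk strands summed could not be run as an alternative, because the only one listed was miR-29b-1*.

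No paired analysis was possible because static and stretched samples enter each value together. Leaving out a replicate, the replicate block, other normalizations and other filters, planned in case values of each sample were found, were therefore not run. Unknown depth weighs most on the rare asterisk strands of miR-29.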
